A study of Mus musculus with 6 samples.

Results

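Pvalb, Calb1, Calb2, Necab1, Necab2 and Necab3 encode EF-hand calcium-binding proteins of neurons, and they were taken from the deposited expression table by gene symbol. The rule gave 6 genes of the 37620 listed, and all 6 passed the filter on low values that left 16127 genes for testing. Expression was measured by RNA-seq of the pre-limbic cortex (PLc), which belongs to the medial prefrontal cortex, in 3 saline-treated and 3 ketamine-treated C57Bl/6 mice aged 9 weeks. Ketamine, an NMDA receptor antagonist, was injected i.p. at 30 mg/kg once a day on 5 days in a row, and controls received the saline vehicle in the same way. The tissue was dissected 2 days after the injections ended, with 1 library for each mouse. The saline libraries carry the mouse numbers 1, 6 and 10 and the ketamine libraries the numbers 3, 5 and 9, and the study asked whether this regime changes the expression of parvalbumin and of calcium signalling genes. The samples are bulk tissue, so for every gene below fewer cells of a type and less RNA per cell cannot be told apart.

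Calcium buffers bind the calcium that enters a neuron during firing and so shape the height and length of its signals. Parvalbumin, calbindin and calretinin, the products of Pvalb, Calb1 and Calb2, are found in largely separate classes of cortical interneurons, and calbindin is also made by some cortical pyramidal neurons and by striatal projection neurons. Calretinin is abundant in interneurons of the olfactory bulb. The NECAB proteins join an EF-hand part to a monooxygenase-like part and are found in subsets of neurons.

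Between 26273436 and 32643726 reads per library were assigned to genes, and each of the 6 genes had between 365 and 8025 reads in a library. Counting error was therefore at most 5.23% of a value. Several libraries stood apart in markers of other tissue. Summed over 15 genes of striatal neurons, normalized counts were between 9571 and 11696 in the saline libraries, 62349 in ketamine 3, 32870.1 in ketamine 5 and 8047 in ketamine 9, and the striatal markers Isl1 and Six3 were at 0 in a library. Summed over 9 genes of olfactory bulb neurons, they were 322, 413 and 995 in saline 1, 6 and 10, and 2777, 1865 and 13178 in ketamine 3, 5 and 9. Summed over 5 oligodendrocyte genes, saline 10 held 355761, against 51312 and 39760.3 in saline 1 and 6 and 97932 to 149418 in the ketamine libraries, and 4 choroid plexus genes summed to 3070.4 in saline 10 against at most 734 elsewhere. Markers of cortical excitatory neurons, 12 genes, summed to 150689 to 200685 in saline and to 96982 to 160231 in ketamine, and none of them was at 0. The part of these differences in the results was not tested, and the log2 fold changes of the 6 genes are also given below without libraries that moved them most. Leaving out saline 10 and ketamine 9 keeps ketamine 3 and 5, the libraries with the highest striatal markers.

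Parvalbumin, a fast-binding buffer of fast-spiking interneurons, was lower in all ketamine libraries than in all saline libraries. Pvalb measured 1105, 893 and 2261 normalized counts in saline 1, 6 and 10. In ketamine 3, 5 and 9 it measured 535, 516 and 669.9. The groups thus did not overlap, and saline 10 alone was more than 2 times as high as the other saline mice. The means were 1419.7 ± 736 in saline and 573.9 ± 83.6 in ketamine (SD, n = 3 each). On the scale of log2(normalized count + 1), which is used for all fold changes below, Pvalb differed by -1.20 ± 0.33 (SE), with a 95% confidence interval from -1.98 to -0.41. The adjusted p was 0.579 with limma, 0.519 with edgeR and 0.0321 with DESeq2, so the call depended on the tool. Saline 10, the library with the highest oligodendrocyte markers, also had the highest Pvalb. Without it the log2 fold change was -0.80 (limma, adjusted p = 0.261), and without saline 10 and ketamine 9 it was -0.92 (limma, adjusted p = 0.0251). Without ketamine 3 and 5 it was -0.96 (limma, adjusted p = 0.362), where ketamine 9 is alone and is assumed to vary like the saline mice.

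Other genes of parvalbumin interneurons did not share one direction. Of 13 such markers, 2 were higher and 2 lower in all ketamine than in all saline libraries, beside 5.69% and 4.66% of tested genes. Log2 fold changes of the 13 markers were above 0 for 5 and below 0 for 8, with a median of -0.094. Their summed counts were 33115 to 41761 in saline and 30660.2 to 42450.4 in ketamine, and the ranges overlapped. Kcnc2, which encodes a fast-deactivating potassium channel, measured 3569 to 3657 in saline and 2335 to 2649.8 in ketamine, with a log2 fold change of -0.52. Tac1, which encodes the precursor of substance P and is abundant in striatal neurons, measured 297 to 377 in saline and 3259.6, 1672 and 644 in ketamine 3, 5 and 9. At an adjusted p under 0.05, DESeq2 called 1 of the 13 markers higher, Tac1, and 1 lower, Kcnc2. The share over all genes given an adjusted p was 1.13%, and limma called 0 of the 13. Relative to the mean log2 level of the 13 markers in the same library, Pvalb stood at 0.14, 0.078 and 1.11 in saline 1, 6 and 10 and at -1.20, -0.94 and -0.037 in ketamine 3, 5 and 9. The groups did not overlap, and the difference was -1.17 (two-sided p = 0.1 by an exact permutation test, which is the lowest value possible with 3 mice in each group, and 0.133 after adjustment over 4 within-library differences). Without ketamine 3 and 5, the libraries with the highest striatal markers, the difference was -0.48.

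Calretinin lay in the other direction and varied most. Calb2 measured 349.6, 388 and 646 normalized counts in saline 1, 6 and 10. It measured 1859.8, 945 and 7274 in ketamine 3, 5 and 9. Every ketamine value exceeded every saline value, and the ketamine values differed among themselves by 7.70-fold, so that the highest of the 6 libraries was 20.8 times the lowest. The means were 461.1 ± 161 and 3359.5 ± 3421 (SD, n = 3 each), and the log2 fold change was 2.39 ± 0.68 (SE) with a 95% confidence interval from 0.78 to 4.0. The adjusted p was 0.587 with limma, 0.484 with edgeR and 0.0907 with DESeq2, and none of these passed 0.05. Without ketamine 9 the log2 fold change was 1.58 (limma, adjusted p = 0.276), without saline 10 and ketamine 9 it was 1.84 (limma, adjusted p = 0.0279), and without ketamine 3 and 5, which leaves ketamine 9 alone, it was 4.03 (limma, adjusted p = 0.0569).

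The order of the libraries by Calb2, from saline 1 through saline 6, saline 10, ketamine 5 and ketamine 3 to ketamine 9, was also their order by the summed olfactory bulb markers. Relative to the saline mean, Calb2 stood at 4.03, 2.05 and 15.8 in ketamine 3, 5 and 9, and the summed markers stood at 4.82, 3.23 and 22.9. Of the 9 olfactory bulb markers, 7 were higher in every ketamine than in every saline library, beside 5.69% of all tested genes. Cdhr1, a protocadherin of mitral and tufted cells, measured 90.05 to 119.7 in saline and 899.6, 817 and 4006 in ketamine 3, 5 and 9. The summed markers of VIP and calretinin interneurons did not follow this order. The 10 genes of this list, without Calb2, summed to 14866 to 21047 in saline and 10792 to 17938 in ketamine. Cck and Cnr1 weigh most in this sum, with means of 7723 and 5615 over the 6 libraries, against 1161 for Vip. Of the 10 genes, 1 was higher and 1 lower in every ketamine library, beside 5.69% and 4.66% of all tested genes. The 2 were Adarb2, with 554.9 to 717 in saline and 776 to 1025 in ketamine, and Npas1, with 253 to 277 in saline and 119 to 182 in ketamine. The part of olfactory bulb RNA in the Calb2 values was not tested.

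**Figure D1:**
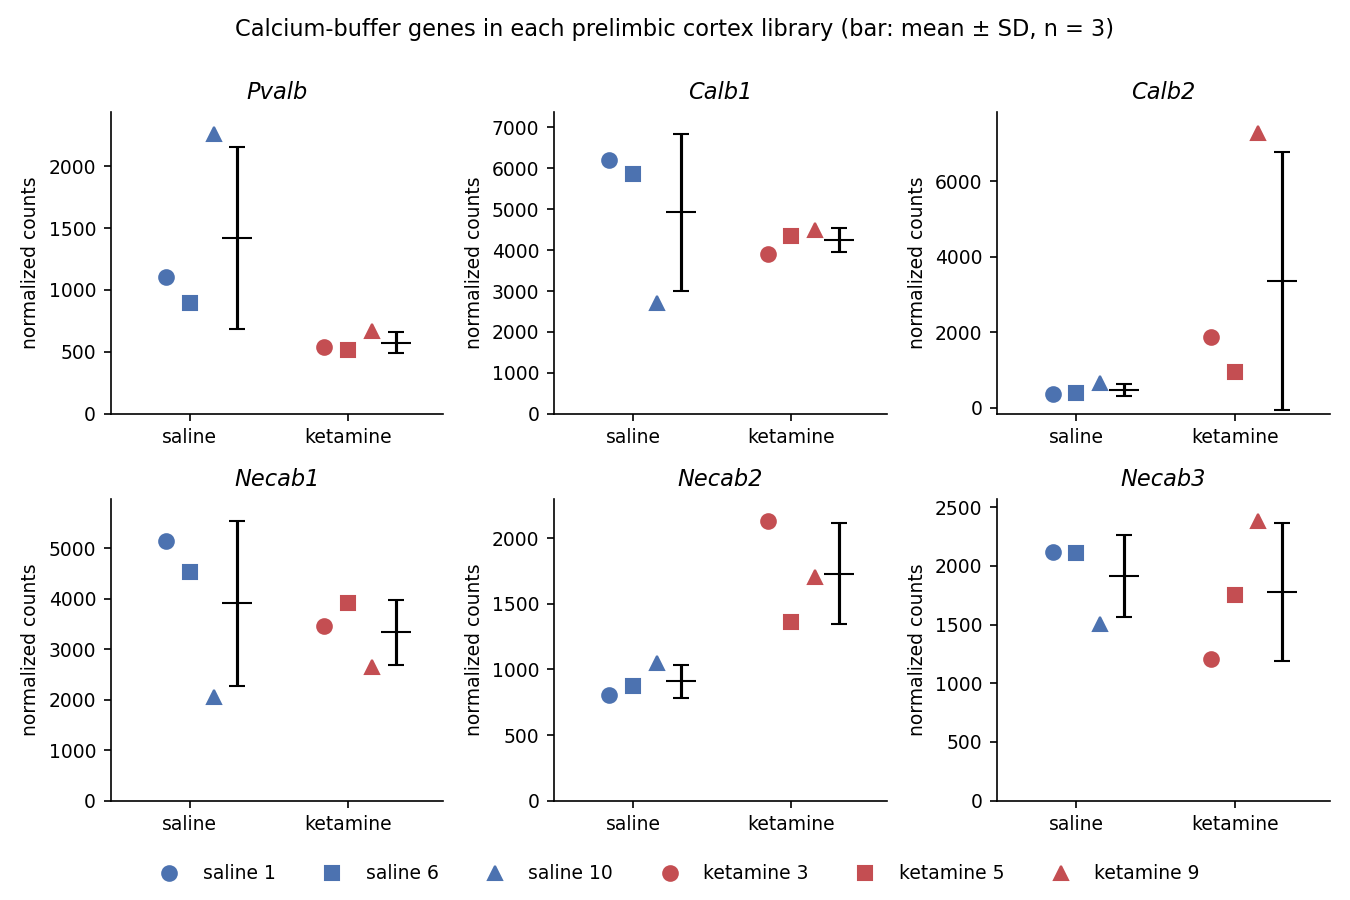
Normalized counts (vertical axes, from about 0) of the 6 calcium-buffer genes in saline 1, 6 and 10 (blue) and ketamine 3, 5 and 9 (red), 1 point per mouse, with the mean ± SD of each group as a black bar. Pvalb points in ketamine (516 to 669.9) lie under all saline points, and the Calb2 and Necab2 points in ketamine lie over all saline points, while the groups overlap for Calb1, Necab1 and Necab3.

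Calbindin is a buffer of some interneurons and of pyramidal neurons of the upper layers. Calb1 measured 6202, 5853 and 2717 normalized counts in saline 1, 6 and 10. It measured 3912, 4336 and 4489.6 in ketamine 3, 5 and 9. The ketamine values lay between the lowest and the highest saline value, and saline 10 was the lowest of all 6 libraries. The log2 fold change was -0.12 ± 0.31 (SE), with a 95% confidence interval from -0.85 to 0.60 (limma, adjusted p = 0.999). This interval does not exclude a fold of 0.555 or of 1.52. Without saline 10, all ketamine values were below both remaining saline values and the log2 fold change was -0.51 (limma, adjusted p = 0.291). Without saline 10 and ketamine 9 it was -0.55 (limma, adjusted p = 0.0444), whereas without saline 1 it was 0.088.

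The 3 classical buffers were also compared with each other within a library. The log2 level of Pvalb minus that of Calb2 was 1.66, 1.20 and 1.81 in saline 1, 6 and 10, and -1.79, -0.87 and -3.44 in ketamine 3, 5 and 9. Its difference between the groups was -3.59 (exact permutation test, two-sided, p = 0.1; 0.133 adjusted over 4). Pvalb was lower and Calb2 higher in all ketamine libraries, so this difference had to separate the groups, and its test adds no evidence. For Pvalb minus Calb1 the difference was -1.07 (exact permutation test, p = 0.1; 0.133 adjusted), with groups that did not overlap, but without saline 10 it was -0.29. For Calb1 minus Calb2 it was -2.52 (exact permutation test, p = 0.2; 0.2 adjusted), and the groups overlapped. With 1 library left out, Pvalb minus Calb2 lay between -4.17 and -2.89 and Calb1 minus Calb2 between -3.19 and -1.74, and without ketamine 3 and 5 they were -4.99 and -4.07.

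**Figure D2:**
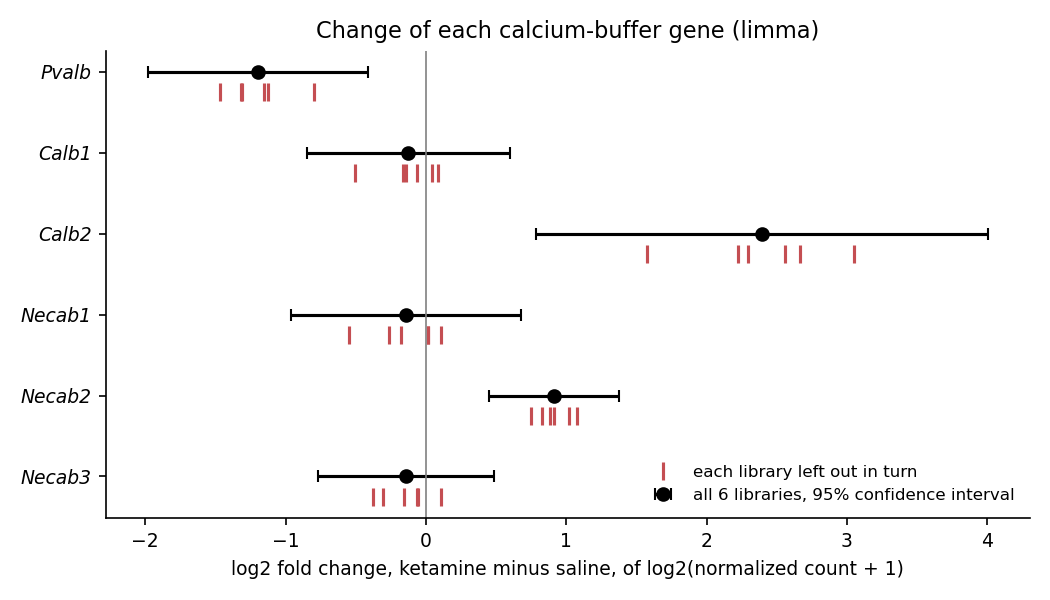
Log2 fold change, ketamine minus saline, of each gene (black point) with its 95% confidence interval (black bar) from limma on log2(normalized count + 1), and the fold change with each of the 6 libraries left out in turn (red ticks). The ticks of Pvalb stay on the side below 0 (-1.47 to -0.80) and those of Calb2 and Necab2 on the side above 0, while the ticks of Calb1, Necab1 and Necab3 lie on both sides.

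Necab2 had the smallest p of the 6 genes. NECAB2 has been described as a binding partner of an adenosine receptor that is abundant in striatal neurons. Necab2 measured 806, 872 and 1051 normalized counts in saline 1, 6 and 10. It measured 2132, 1359 and 1701 in ketamine 3, 5 and 9. All ketamine values were above all saline values. The means were 909.7 ± 127 and 1731 ± 387 (SD, n = 3 each), and the log2 fold change was 0.91 ± 0.20 (SE) with a 95% confidence interval from 0.45 to 1.37. The adjusted p was 0.362 with limma, 0.368 with edgeR and 0.00996 with DESeq2. With a library left out, the log2 fold change lay between 0.75 and 1.07, and without ketamine 3 and 5 it was also 0.91 (limma, adjusted p = 0.126; ketamine 9 is then alone and assumed to vary like saline mice).

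Necab2 was highest in ketamine 3, the library with the highest striatal markers. It also exceeded every saline library in ketamine 9, where striatal markers were lowest and olfactory bulb markers highest. Drd1, the dopamine receptor of direct-pathway striatal neurons, measured 184 to 237 in saline and 2631, 1237 and 116 in ketamine 3, 5 and 9. The summed counts of 9 general GABAergic genes were 28629.9, 26412 and 30834 in saline 1, 6 and 10 and 54581, 35831 and 47122 in ketamine 3, 5 and 9. Ketamine 5, 9 and 3 followed each other upwards in these counts as they did in Necab2. Of the 9 genes, 8 were higher in every ketamine library, beside 5.69% of all tested genes. Gad1, a GABA-synthesizing enzyme, measured 9233, 8469 and 10686 in saline and 15903, 11653 and 21399 in ketamine. The part of striatal, general GABAergic or olfactory bulb cells in the Necab2 values was not tested.

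Necab1, expressed in cortical neuron subsets, measured 5151, 4527 and 2058 normalized counts in saline 1, 6 and 10. In ketamine 3, 5 and 9 it measured 3462, 3914 and 2644. The groups overlapped, and saline 10 was again the lowest library. Its log2 fold change was -0.14 ± 0.35 (SE), with a 95% confidence interval from -0.96 to 0.68 (limma, adjusted p = 0.999). Without saline 10 it was -0.55 (limma, adjusted p = 0.402) and without saline 1 it was 0.11.

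Necab3 measured 2122, 2111 and 1508 normalized counts in saline 1, 6 and 10. In ketamine 3, 5 and 9 it measured 1209, 1749 and 2383. The lowest and the highest library were both ketamine libraries. Its log2 fold change was -0.14 ± 0.27 (SE), with a 95% confidence interval from -0.77 to 0.48 (limma, adjusted p = 0.999). It was 0.11 without ketamine 3 and 0.33 without ketamine 3 and 5 (limma, adjusted p = 0.471).

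limma called 0 of the 6 genes at an adjusted p under 0.05, and 0% of the 16127 tested genes. edgeR likewise called 0 of the 6 and 0% of the same genes. DESeq2 called 2 of the 6, Pvalb and Necab2, against 1.13% of the genes to which it gave an adjusted p. At an unadjusted p under 0.05, limma and edgeR each marked 3 of the 6, Pvalb, Calb2 and Necab2, beside 5.81% of all tested genes for limma and 6.24% for edgeR. The groups did not overlap for 2 genes that were higher in ketamine, Calb2 and Necab2, beside 5.69% of tested genes. They did not overlap for 1 gene that was lower, Pvalb, beside 4.66%. Without saline 10 and ketamine 9, limma called 4 of the 6, which were Pvalb, Calb1, Calb2 and Necab2, beside 3.64% of tested genes. That fit compared saline 1 and 6 with ketamine 3 and 5, the libraries with the highest striatal markers. In that fit Necab1 had a log2 fold change of -0.39 (limma, adjusted p = 0.108) and Necab3 one of -0.54 (limma, adjusted p = 0.130). The 6 genes were proposed with earlier results of these data known, and no test was made over them together.

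**Figure D3:**
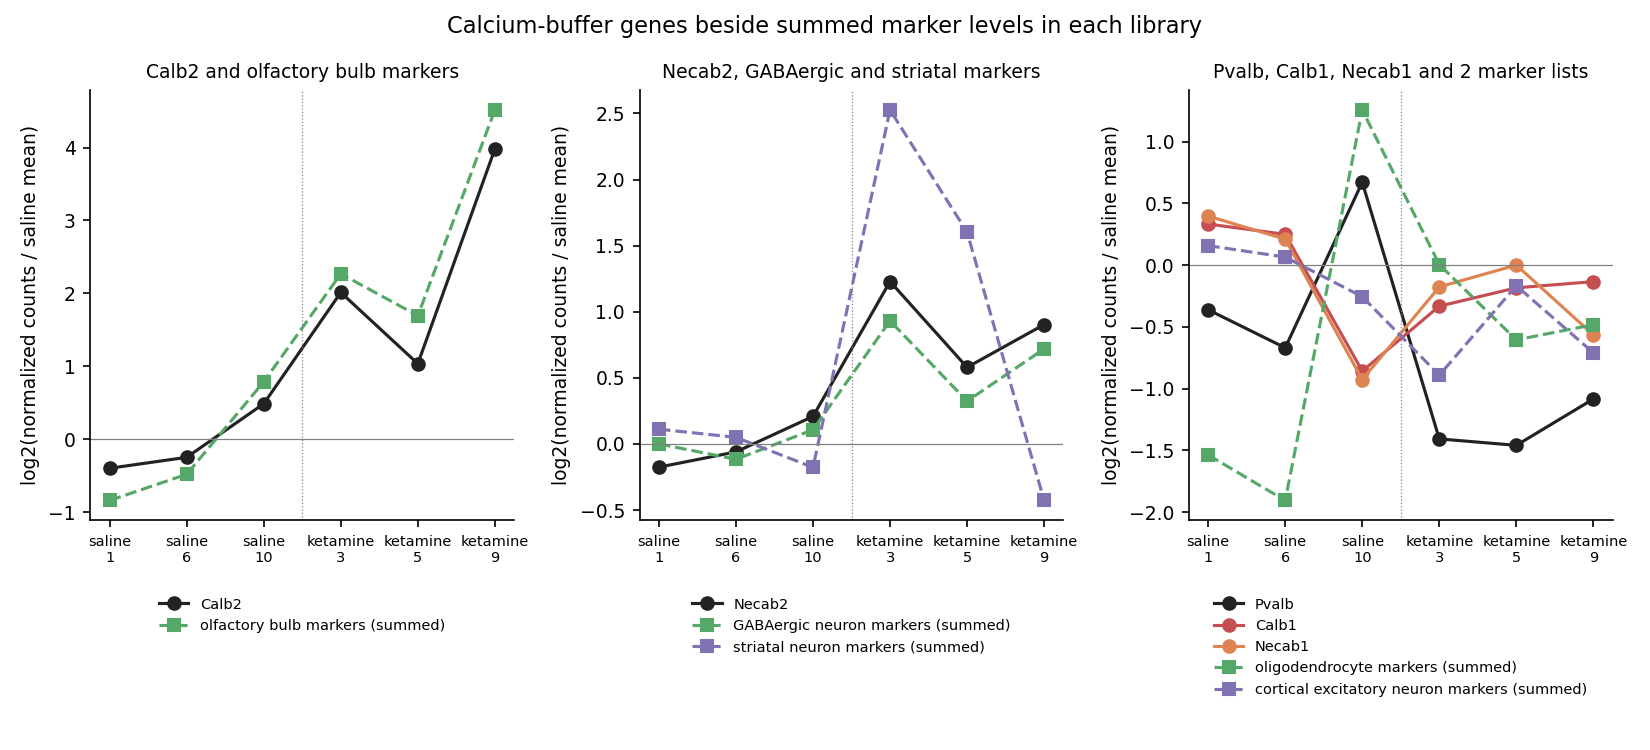
Log2 of each normalized count relative to its saline mean (vertical axes) in the 6 libraries (horizontal axes, saline left of the dotted line), for calcium-buffer genes (circles, solid lines) and for markers summed over a list (squares, dashed lines). Calb2 and the olfactory bulb markers have the same order of libraries. Necab2, the GABAergic markers and the striatal markers are highest in ketamine 3. Saline 10 has the highest oligodendrocyte markers and Pvalb but the lowest Calb1 and Necab1.

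The levels of the 6 genes were compared per length, as RPKM, which is reads divided by exon length and by library depth. In saline the order of the mean RPKM was Pvalb 46.0 ± 25.5, Calb1 33.6 ± 12.2, Necab3 24.9 ± 3.86, Necab1 24.6 ± 9.63, Necab2 14.5 ± 2.60 and Calb2 8.90 ± 3.46 (SD, n = 3). In ketamine it was Calb2 68.7 ± 71.0, Calb1 30.7 ± 2.41, Necab2 29.0 ± 6.91, Necab3 24.6 ± 8.49, Necab1 22.3 ± 3.76 and Pvalb 19.4 ± 3.29 (SD, n = 3). The ranges of each pair of neighbours in these orders overlapped. By the means, Pvalb was the first in saline and the last in ketamine, and Calb2 the reverse, although the first place of each rests on 1 library, saline 10 with a Pvalb RPKM of 75.3 and ketamine 9 with a Calb2 RPKM of 149.9. Calb2 was the lowest of the 6 genes in every saline library. In ketamine the lowest gene was Necab3 in ketamine 3, Pvalb in ketamine 5 and Necab1 in ketamine 9.

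Of the summed RPKM of the 3 classical buffers, Pvalb took 41.8%, 37.5% and 70.0% in saline 1, 6 and 10, and 21.5%, 25.7% and 11.2% in ketamine 3, 5 and 9. Calb2 took 7.89%, 9.73% and 11.9% in saline and 44.7%, 28.0% and 72.7% in ketamine. The shares of both did not overlap between the groups, while the share of Calb1 did, with 18.1% to 52.8% in saline and 16.1% to 46.3% in ketamine. These 3 shares sum to a whole in each library, so they are not independent.

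**Figure D4:**
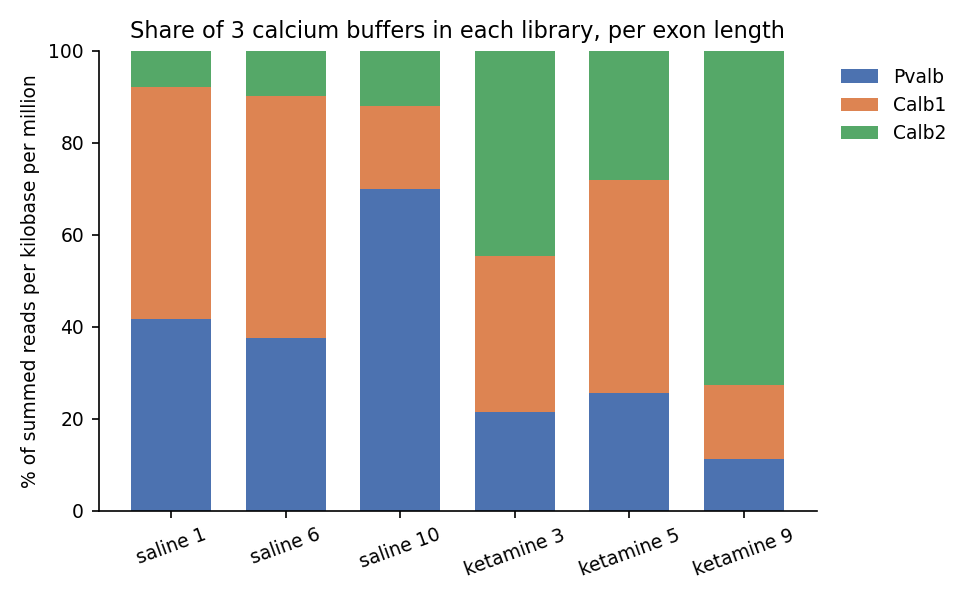
Share (% of summed RPKM, from 0 to 100) of Pvalb (blue), Calb1 (orange) and Calb2 (green) in each of the 6 libraries. Calb2 takes at most 11.9% in saline and at least 28.0% in ketamine, and Pvalb takes at least 37.5% in saline and at most 25.7% in ketamine.

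In the mm9 genome, Pvalb (ENSMUSG00000005716) lies on chr15:78021544-78036830 (minus strand), Calb1 (ENSMUSG00000028222) on chr4:15808411-15835211 (plus strand) and Calb2 (ENSMUSG00000003657) on chr8:112661402-112692110 (minus strand). Necab1 (ENSMUSG00000040536) lies on chr4:14879392-15076941 (minus strand), Necab2 (ENSMUSG00000031837) on chr8:121970619-121996540 (plus strand) and Necab3 (ENSMUSG00000027489) on chr2:154370135-154384626 (minus strand). Calb1 and Necab1 are thus both on chromosome 4, 0.7315 Mb apart, with other annotated genes between them. Calb2 and Necab2 are both on chromosome 8, 9.279 Mb apart. No annotated gene overlaps Pvalb, Calb1, Calb2 or Necab2. Necab1 shares 410 exonic bases with Gm11837 on the other strand, whose mean was 32.3 normalized counts, and Necab3 shares 71 with 1700003F12Rik, whose mean was 9.98. The strand setting of the counting is not given in the sources used here.

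Of the 3 genes whose groups did not overlap, Pvalb, Calb2 and Necab2, the promoter windows of Pvalb and Necab2 are shown from the RefSeq promoter table (GRCm38.p6), which holds 250 bases before and 50 bases after the start of a gene and has entries for 3 of the 6 genes, Pvalb, Necab2 and Necab3. Both are printed 5′ to 3′ on the strand of the gene, with a match to a GC box (GGGCGG on either strand) in capitals. The window of Pvalb is chr15:78206351-78206650 (minus strand, the more upstream of 2 in the table) and that of Necab2 is chr8:119446469-119446768 (plus strand).
Pvalb: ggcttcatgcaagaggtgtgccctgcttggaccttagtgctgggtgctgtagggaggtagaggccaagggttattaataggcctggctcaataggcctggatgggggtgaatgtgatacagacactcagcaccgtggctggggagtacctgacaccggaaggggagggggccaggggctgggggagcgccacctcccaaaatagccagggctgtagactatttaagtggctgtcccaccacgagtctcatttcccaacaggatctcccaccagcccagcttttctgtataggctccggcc
Necab2: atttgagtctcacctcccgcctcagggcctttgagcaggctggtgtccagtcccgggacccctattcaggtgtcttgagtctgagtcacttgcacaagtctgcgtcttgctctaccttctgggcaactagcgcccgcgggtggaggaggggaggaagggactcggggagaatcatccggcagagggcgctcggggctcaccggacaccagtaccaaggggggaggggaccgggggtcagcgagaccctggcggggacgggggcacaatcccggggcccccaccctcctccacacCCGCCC

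On both strands of these windows, the GC box and 4 other motifs were searched. These were the TATA box with the letters TATAAA, the CCAAT box with the letters of its name, the cAMP response element with the letters TGACGTCA and the E-box with the letters CACGTG. The letters of none of the 5 motifs contain those of another. Pvalb held 0 matches and Necab2 held 1, a GC box whose first base is at position 45 after the start. A GC box was found in 35.7% of the 32851 promoter windows, a TATA box in 13.6%, a CCAAT box in 37.4%, a cAMP response element in 1.79% and an E-box in 7.15%. The GC content was 58.3% for Pvalb and 66.7% for Necab2, against a median of 52.7% over all windows.

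For each gene, the genes with the most similar profile over the 6 libraries were taken as those with the smallest root mean square difference of centred log2 values, among the 12412 genes that averaged 100 normalized counts or more. Pvalb was nearest to Hsd11b1, a glucocorticoid-activating enzyme (0.173), Kcng4, a modifier subunit of potassium channels (0.290), and Pigz (0.302). Calb2 was nearest to the homeobox gene Pbx3 (0.380), Cacng5 (0.425) and Sp9, a transcription factor of interneurons born in the ganglionic eminences (0.438). Necab2 was nearest to Samd14 (0.102), the GABA-A receptor subunit gene Gabrg1 (0.122) and Dpysl5 (0.128). For the other genes, near profiles were those of Ranbp3l, Myh7 and Hdac9 (0.101 to 0.105) for Calb1, 1700030J22Rik, Gsg1l and 9430031J16Rik (0.0550 to 0.0853) for Necab1, and Golga7b (0.0314) and Ttc9b (0.0693) for Necab3. Among the 6 genes themselves, Calb1 and Necab1 were closest (0.205) and Pvalb and Calb2 farthest apart (1.95).

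Related calcium genes were counted over 6 lists, in which 64 of 72 genes passed the filter. The median log2 fold change of these was -0.050, against -0.014 over all tested genes, with 28 above and 36 below 0. limma called 0 of them at an adjusted p under 0.05, and 10 of the 64 at an unadjusted p under 0.05, beside 5.81% of all tested genes. edgeR called 0 and DESeq2 called 1, and the groups did not overlap for 6 genes that were higher, beside 5.69% of all tested genes, and 6 that were lower in ketamine, beside 4.66%. Scgn and S100a5 are among the 10 and among the 6 higher genes. Their saline means, 8.06 and 2.89, are below the 10 normalized counts of the filter, so they passed it through the ketamine libraries. These counts describe the lists only.

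Among the small EF-hand relatives, 2 of 3 were tested, and secretagogin was set apart from Ocm, a parvalbumin homologue. Scgn, a calcium sensor abundant in olfactory bulb interneurons, measured 2.87, 4.83 and 16.5 normalized counts in saline 1, 6 and 10 and 75.4, 84.7 and 713 in ketamine 3, 5 and 9. The groups did not overlap, and ketamine 9 was the highest, as it was for Calb2. Ocm measured 5.49 to 25.1 in saline and 3.92 to 20.9 in ketamine, and the groups overlapped.

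Of 11 tested neuronal calcium sensors, which relay calcium to membranes and channels, 2 were higher and 3 lower in all ketamine libraries. The shares over all tested genes were 5.69% and 4.66%. The median log2 fold change of the sensors was -0.11. It was -0.072 without ketamine 9, -0.074 without saline 6, -0.27 without ketamine 3 and 5 and -0.018 without saline 10 and ketamine 9. Hpcal1, a visinin-like sensor, measured 743 to 861 in saline and 1315 to 1562 in ketamine, with a log2 fold change of 0.82. Kcnip1, a subunit of A-type potassium channels, measured 607 to 673 and 752 to 1100.4, with a log2 fold change of 0.59. Hippocalcin lay in the other direction, with Hpca at 16895 to 30386 in saline and 10983 to 13628 in ketamine, where saline 10 held the highest value.

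Of 9 tested genes for calmodulin, calcium-binding proteins of the CaBP group and calcineurin B, 7 had a log2 fold change below 0. Their median was -0.21 over all 9, -0.11 without ketamine 3 and -0.37 without saline 10 and ketamine 9. Ppp3r1, the regulatory subunit of the phosphatase calcineurin, was the 1 gene of this list without overlap, with 28518 to 33754 in saline and 19677 to 25388 in ketamine. Genes lower without overlap made up 4.66% of all tested genes. Cabp1 and Calm3, a calmodulin gene, had log2 fold changes of -0.35 and -0.21 with overlapping groups.

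S100 proteins are dimeric EF-hand proteins, many of them glial. Of 10 tested, 8 had a log2 fold change above 0 and the median was 0.22. It was -0.081 without ketamine 9 and 0.73 without ketamine 3 and 5. S100a5, known from olfactory neurons, was the 1 gene without overlap, with 2.87, 5.79 and 0 in saline 1, 6 and 10 and 7.83, 52.7 and 598 in ketamine 3, 5 and 9. The highest value was again in ketamine 9. Genes higher without overlap made up 5.69% of all tested genes. S100a11 and S100a6 had log2 fold changes of 0.36 and -0.27 with overlapping groups.

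Of 12 calcium-binding proteins of the endoplasmic reticulum, 6 lay above and 6 below 0, with a median of 0.0057. Rcn1, reticulocalbin, was the 1 gene without overlap, with 545 to 789 in saline and 829.8 to 1330.3 in ketamine. The share of genes higher without overlap was 5.69% over all tested genes. Rcn2 and Sdf4 overlapped, with log2 fold changes of 0.26 and -0.096.

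Of 20 pumps, exchangers and uniporter genes, which remove calcium from the cytosol, 13 lay below 0 and the median log2 fold change was -0.21. It was -0.023 without ketamine 9 and -0.42 without ketamine 3 and 5. Slc8a3, a sodium-calcium exchanger, measured 473 to 573 in saline and 702 to 1227 in ketamine, with no overlap. Atp2b1, a plasma membrane calcium pump, measured 24242 to 30412 in saline and 16426 to 23502 in ketamine, also with no overlap. Atp2c1 was lower without overlap too, with 5128 to 5458 in saline and 4091 to 5096 in ketamine. Of the 20 genes, 1 was thus higher and 2 lower in every ketamine library, beside 5.69% and 4.66% of all tested genes. Slc8a2 had a log2 fold change of -0.58 and its groups overlapped. The cortical excitatory marker Slc17a7, a vesicular glutamate transporter, measured 32973 to 49417 in saline and 22152 to 40369 in ketamine, and the part of such cells in the values of these lists was not tested.

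**Figure D5:**
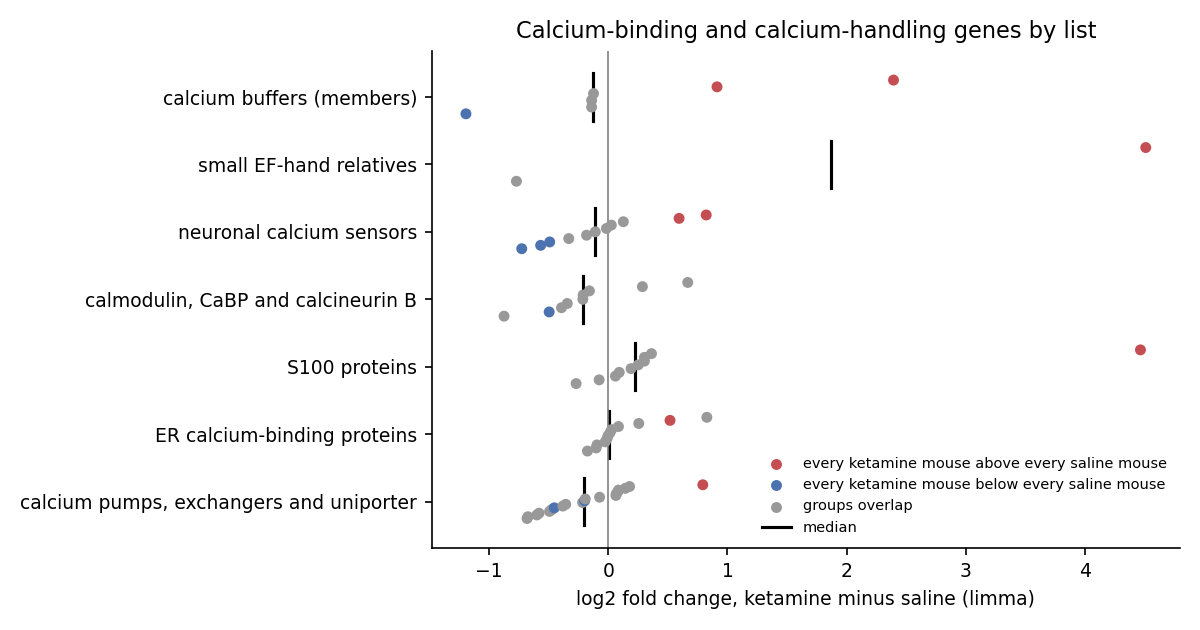
Log2 fold change, ketamine minus saline (horizontal axis, limma), of each tested gene of the 6 calcium buffers and of 6 related lists (rows), with the median of each list as a black bar; red points had every ketamine mouse above every saline mouse, blue points the reverse and grey points overlapping groups. Scgn (4.51) and S100a5 (4.47) lie farthest to the right, and most genes of the other lists lie within 1 unit of 0.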

How the data were processed

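RNA-seq libraries of PLc from 3 saline and 3 ketamine mice were compared, with groups and mouse numbers taken from the sample labels. The submitters' processing notes name CASAVA, TopHat2 2.0.11, HTSeq, DESeq2 and the mm9 build, and per the methods of the study paired-end reads were aligned and counted per gene. The unit of the deposited table is a signal, made by the authors from gene counts by division with the size factor of the library. Dividing by the value of 1 read gave a whole number, within 0.1 read, for 100% of values, so reads were recovered for the count tests.

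Log2(normalized count + 1) was compared with limma 3.58.1 in R 4.3.3, two-sided, with a trend in the prior variance, over the 16127 genes that averaged 10 normalized counts or more, and p-values were adjusted by Benjamini-Hochberg over all of them. This scale understates the change of low genes. edgeR 4.0.16 (quasi-likelihood) and DESeq2 1.42.0 were alternatives on recovered reads, together with other pseudocounts, filters and scalings and with libraries left out. Exact permutation tests were used for differences within libraries. The tests were also run on counts simulated independently for each gene. Such counts hold no tissue differences shared between genes, so they do not show how the tests behave on these libraries.

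The 6 genes, the calcium-handling and marker lists and the libraries left out were chosen with earlier results of these data known. From each related calcium list the 3 genes with the smallest limma p are named, from each list of interneuron markers the 2 with the smallest p, with Gad1, Slc17a7, Drd1 and the most abundant olfactory bulb marker, and for each of the 6 genes the 3 with the most similar profile, of which 1 is not reported here. Symbols are those of the table, or by identifier where the table shares or lacks one. Coordinates and exon lengths are from GENCODE M1 on mm9. Whether a mouse number marks a separate animal rests on the labels, and p-values measure the spread between these libraries only.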

Additional observations from a re-analysis of the deposited data

How the results depend on the processing

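Pseudocounts of 0.1 and 5, other filters, other scalings, no trend and edgeR left the direction and the call of all 6 genes as given with limma. Scalings moved the median of all genes by under 0.1 on the log2 scale. At an adjusted p under 0.05, DESeq2 called 182 genes, or 185 over all genes with a read, against 0 with limma, and 587 were called by limma without saline 10 and ketamine 9, while leaving out 1 library gave 0 to 1. With DESeq2 the log2 fold change of Pvalb was -1.30 in both forms and that of Necab2 was 0.93, all past the threshold. Without saline 10 and ketamine 9, Pvalb (-0.92), Calb1 (-0.55), Calb2 (1.84) and Necab2 (1.02) passed it. The ketamine libraries of that fit, 3 and 5, have the highest striatal markers, and the cause of these calls was not tested. With 1 library left out, log2 fold changes lay between -1.47 and -0.80 for Pvalb, 1.58 and 3.05 for Calb2, and 0.75 and 1.07 for Necab2. They changed sign for Calb1 (-0.51 to 0.088, above 0 without saline 1 or 6), Necab1 (-0.55 to 0.11, above 0 without saline 1, saline 6 or ketamine 9) and Necab3 (-0.38 to 0.11, above 0 without ketamine 3). Necab3 was also at 0.33 without ketamine 3 and 5. The within-library differences kept their direction in 10 of 10 alternatives each, as Pvalb minus Calb2 had to with groups that do not overlap for either gene. Pvalb minus Calb1, however, went from -1.07 to -0.29 without saline 10 (-0.37 without saline 10 and ketamine 9). Pvalb minus the PV markers went from -1.17 to -0.48 without ketamine 3 and 5. Of 114 list medians under the alternatives, 107 moved by less than the spread and 7 by more. No paired analysis was possible because mouse numbers differ between the groups. With 3 mice per group the exact test cannot go below p = 0.1, and depth is not the limit for the 6 genes, whose counting error was at most 5.23%.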

Other observations

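Between Necab1 and Calb1 lies 1 tested gene, Tmem64, a membrane protein gene. It measured 2219, 2079 and 1095 normalized counts in saline 1, 6 and 10, and 1759, 1697 and 1768 in ketamine 3, 5 and 9, so saline 10 was the lowest library for it as for Calb1 and Necab1. The ratio of Necab1 to Calb1 normalized counts was 0.830, 0.773 and 0.757 in saline 1, 6 and 10, and 0.885, 0.903 and 0.589 in ketamine 3, 5 and 9, and the groups overlapped. These values were picked after they were seen.

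Somatostatin interneuron genes, a further class of cortical inhibitory cells, summed over 7 genes to 9268 to 9642 in saline and 8205 to 10479.7 in ketamine. Sst measured 3695 to 4227 in saline and 3229 to 3568 in ketamine, without overlap, with a log2 fold change of -0.18. Chodl, a marker of long-projecting somatostatin cells, measured 10.6 to 16.3 in saline and 94.0, 20.7 and 18.1 in ketamine 3, 5 and 9. Of the 7 genes, 1 was higher and 1 lower in every ketamine library, beside 5.69% and 4.66% of all tested genes. Thalamic genes summed to 1359 to 2539 in saline and 1361 to 2590.1 in ketamine, and astrocyte genes to 25109 to 39065 and 33737 to 36385. Microglial genes summed to 5991 to 6920.5 and 5849 to 6424, and endothelial genes to 3182 to 3515 and 3206 to 3248.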
